A study of Arabidopsis thaliana with 12 samples.

Results

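The transcriptome of Arabidopsis shoot apical meristems (SAMs) in which protein synthesis had been blocked with cycloheximide (Cyc) was compared with that of mock-treated SAMs, gene by gene. All plants carried *35S::WUS-GR* in the *ap1-1;cal1-1* background, whose apices overproliferate as inflorescence meristems, so both groups held the WUS-GR fusion in all cells and neither received the dexamethasone (Dex) that activates it. Plants were about 28 days old and were treated for 4 h with 10 µM Cyc or with a mock solution, whose content is not given in the sources used here. RNA was pooled over the SAMs of many plants per treatment and was read on 3 Cyc and 3 Mock ATH1 arrays, where probe sets of short oligonucleotides each read a gene. A further 6 arrays, 3 of Dex and 3 of Dex+Cyc, took part in the choice of probe sets. They were also in the fit that set the spread behind each test. Their own values are given only where named. A locus was included when its mean signal, after 1 probe set per locus was kept by the highest mean, was at least 100 in Cyc or in mock. This held for 14531 of 22595 loci: 12929 reached 100 in both groups, 929 only in Cyc and 673 only in mock. A locus just under that minimum, AT1G15840, had a higher group mean of 99.99, and the one just over it, AT1G80880, had 100.04; their log2 differences were -0.25 and 0.42.

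Cycloheximide stops elongation on cytosolic ribosomes, while the ribosomes of plastids and mitochondria are not its target. Transcripts of genes that are held down by short-lived repressor proteins, or whose decay depends on translation, are known to build up when translation stops. Such superinduction is well known for the primary auxin response genes, whose repressors, the Aux/IAA proteins, are short-lived. Dividing cells, in turn, need new protein to pass from one phase of the cell cycle to the next.

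The array medians lay between 216 and 228 in mock and between 220 and 224 in Cyc, after the authors' scaling of each array to the same trimmed mean. Log2 signals of arrays of one group correlated across loci with r between 0.937 and 0.949, and those of a Cyc with a Mock array between 0.856 and 0.873. The ratio of the 3′ to the 5′ control probe set, a sign of RNA integrity, was 1.55 to 1.87 for GAPDH in Cyc and 2.04 to 2.14 in mock without overlap. It overlapped between the groups for ubiquitin and actin; the part of RNA integrity in the results below was not tested. Whether the 3 numbered samples of a treatment were separate pools of plants is not in the labels, and the p-values cover the spread among these arrays alone, part or all of which may be technical. As in any bulk tissue, fewer cells of a type and less RNA per cell cannot be told apart. Of the defining genes of the inflorescence meristem, *UFO* and *FIL* (listed as *AFO*) were read above the minimum in both groups, and *KNAT1* had a mock mean of 2860. *CLV3* passed only through Cyc, with a mean of 101 there and of 85.9 in mock. *WUS* and *STM* were not read by a named probe set. The stomatal gene *FAMA* stayed below 100 in both groups. Other markers from outside the meristem were read: the leaf genes *RCA* and *LHCB4.1* had mock means of 2754 and 3055. The xylem gene *IRX3* was at the minimum, with a mean of 100.3 in mock and 61.0 in Cyc.

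Blocking protein synthesis changed 3330 of the 14531 loci (22.9%). In one limma fit on log2 signal, 1755 loci were higher and 1575 lower in Cyc at an adjusted p under 0.01 (Benjamini-Hochberg over all 22595 loci) with at least a 2-fold change, which is 12.1% and 10.8% of these loci. These shares are the background against which the counts for gene groups below are read. For groups chosen after the values were seen, a gap from the background may come from that choice. The median log2 difference of the upregulated loci was 2.55 and that of the downregulated loci was -1.25. Of the upregulated loci 1094 rose at least 4-fold and 468 at least 16-fold, against 87 and 3 of the downregulated loci. Because a MAS5 signal of a few units has no known floor, the same counts were taken after adding 32 to every signal, and they were 938 and 301 against 34 and 0. Part of this gap comes from the way loci were included, since 706 increases were at loci that reached the minimum in Cyc alone. Among the loci with a mean of 100 or more in both groups, the median log2 difference was 1.91 for the increases and -1.23 for the decreases, with 501 against 46 changed at least 4-fold and 98 against 0 at least 16-fold. In each Mock array the loci called higher held between 3.87% and 4.36% of the summed signal, and in each Cyc array between 26.4% and 30.6%. The loci called lower held between 13.2% and 13.9% in mock and between 5.10% and 5.61% in Cyc.

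**Figure D1:**
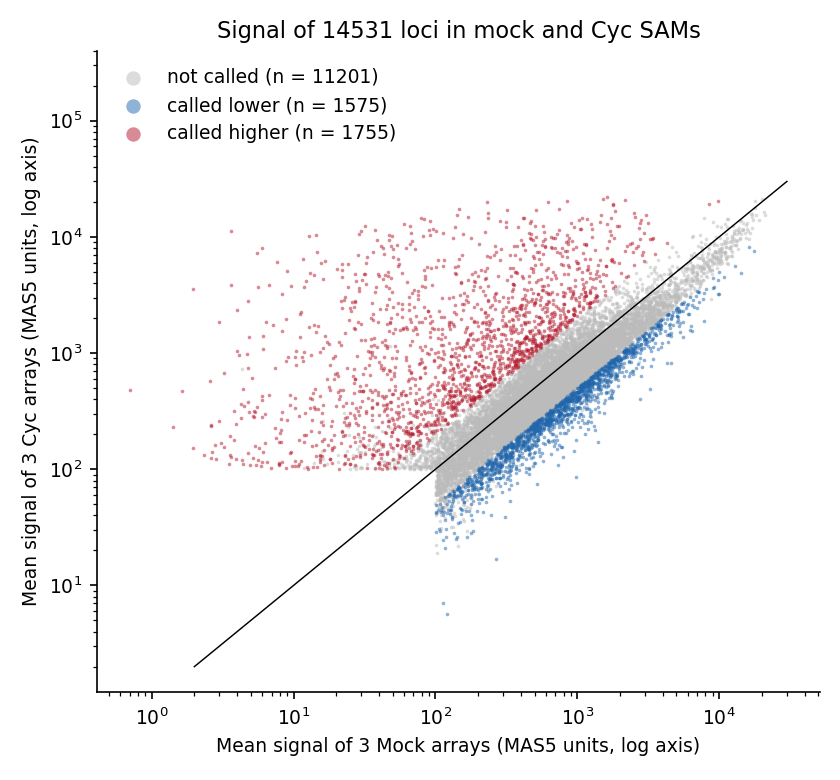
Mean MAS5 signal of each of the 14531 loci in 3 Mock arrays (x, log axis) and 3 Cyc arrays (y, log axis), with the line of equal signal. The 1755 loci called higher (red) reach far above the line at every mock signal below about 5000, while the 1575 called lower (blue) lie in a narrow band under it.

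The balance of rises and falls depended on how the arrays were set against each other. The median log2 difference was -0.18 over all loci and -0.27 over those above the minimum, with quartiles at -0.70 and 0.27. When each array was instead centred on the median of its log2 ratios to the mean of the 12 arrays, a scaling chosen after the data were seen, 2010 loci were higher and 892 lower, so that 69.3% rather than 52.7% of the calls were increases. All 1755 increases remained among those calls, and 892 of the 1575 decreases. Decreases of about 2-fold are therefore relative to the array scaling, and counts of decreases in gene groups that change with it are given under both scalings. Other counts and shares of decreases, such as those by brightness and those with Dex, are under the deposited scaling alone. Among loci with a mean of 100 or more in both groups, 1049 were higher (8.11%) and 1334 lower (10.3%).

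The shares of calls were also counted by the level of a gene in the Dex arrays, which did not enter the contrast. Of all loci, 13508 had a mean of at least 100 in Dex, a condition chosen after the data were seen that uses neither the Cyc nor the Mock arrays, and they were split into 5 groups by their signal there. The share called higher in Cyc was 14% in the dimmest group, 9.51%, 7% and 5.48% in the next groups and 2.70% in the brightest, with signals from 1334 to 21410. The share called lower was 9.73% in the dimmest group, 9.88%, 10.5% and 12.1% in the next and 15.5% in the brightest. The median log2 difference went from -0.14 in the dimmest to -0.55 in the brightest group. When the split was made over the 12929 loci with a mean of 100 or more in both Cyc and mock, 16.5% of the dimmest and 2.71% of the brightest group were called higher, and 4.56% and 15.5% lower. Over all 14531 loci 34.3% of the dimmest group were called higher and 6.43% lower, but there a locus that is dim in Dex often entered only through its signal in Cyc. The bright end of the transcriptome was in part made up of other genes after Cyc. Of 377 loci with a mock mean of at least 5000, 2 were called higher and 56 lower, whereas 244 of the 484 loci with a Cyc mean of at least 5000 had been called higher. In 54 cases a locus went from a mock mean below 100 to a Cyc mean of at least 5000. These loci were picked by the arrays that also gave the calls. A high Cyc mean favours increases and a high mock mean favours decreases, so the counts only describe which loci were bright.

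**Figure D2:**
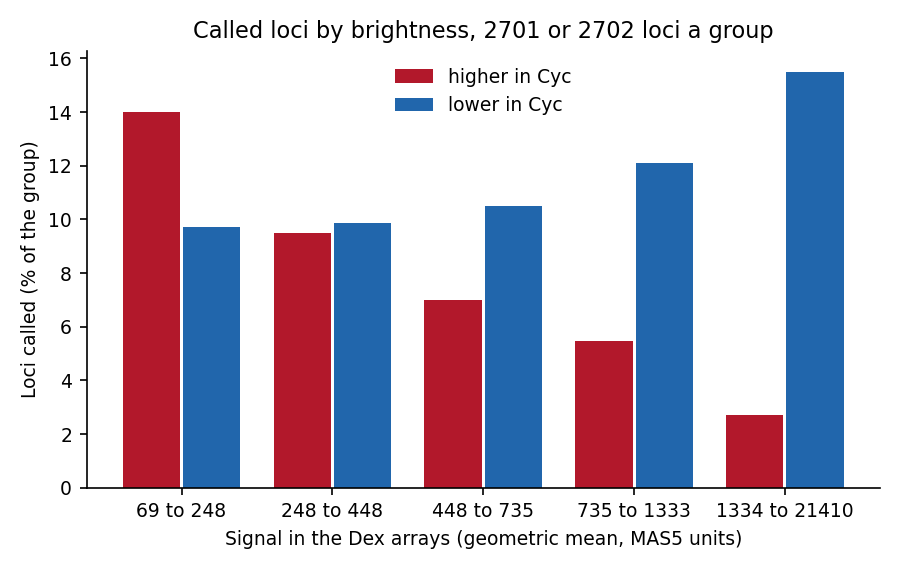
Share of loci called higher (red bars) and lower (blue bars) in Cyc, in percent of the 2701 or 2702 loci of each group, for 5 groups of rising signal in the 3 Dex arrays among the 13508 loci with a mean of at least 100 in Dex. Calls of higher loci drop from 14% in the dimmest group to 2.70% in the brightest, and calls of lower loci go from 9.73% to 15.5%.

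The 15 largest increases among genes with a symbol and non-overlapping arrays all started from a mock mean under 100. The largest on the log2 scale was that of *ZCF37* (AT1G59590), with signals of 7.59, 2.96 and 7.56 in the Mock arrays and of 7019, 9508 and 7542 in the Cyc arrays. From hardly any signal the gene thus came to stand among the bright loci of the array in each Cyc sample. It rose by 10.49 ± 0.33 on the log2 scale (SE; limma adjusted p = 8.64e-08), or 210.3-fold when 32 was added to each signal. *DLAH* (AT1G30370), a DAD1-like lipase gene, had 5.74, 13.8 and 19.1 in mock and 8752, 11983 and 9698 in Cyc (log2 9.78, limma adjusted p = 2.11e-07). With 32 added its rise was 227-fold, above that of *ZCF37*. The 2 groups of arrays stood apart by more than 2 orders of magnitude for both genes. *BCB* (AT5G20230), encoding a blue copper-binding protein, had 61.0, 44.2 and 92.0 in mock and was the brightest of the 15 in Cyc with 13403, 12560 and 11455, a log2 rise of 7.63.

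Several of these genes encode parts of the machinery at the cell surface that perceives or passes on signals. *B120*, a receptor kinase gene of the S-domain type, rose from 15.7 ± 6.09 to 5908 ± 1141 (SD, n = 3; log2 8.61). *CNGC19*, a cyclic nucleotide-gated channel gene, rose from 49.9 ± 21.4 to 7830 ± 893 (log2 7.37). Others encode enzymes: *GolS2* for galactinol, the galactosyl donor of raffinose sugars (log2 8.01), *BGLU31* of the beta-glucosidases (7.64), the tau-class glutathione transferase *GSTU12* (7.36) and the cell wall enzyme *XTH18* (7.67). *CYP81F2* and *IGMT1*, which modify indole glucosinolates, rose by 9.27 and 7.72, and the cytochrome P450 gene *CYP71A18* by 7.83. Rises with 32 added to each signal ranged over these 15 genes down to 17.5-fold, for *CYP71A18*. The other 2 of the 15 with roles in families described below were *GH3.1* and *CML37*, and *AR781* (log2 7.50) completed them. Of the 15, 5 were named only through the study's lists of Dex-responsive genes.

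**Figure D3:**
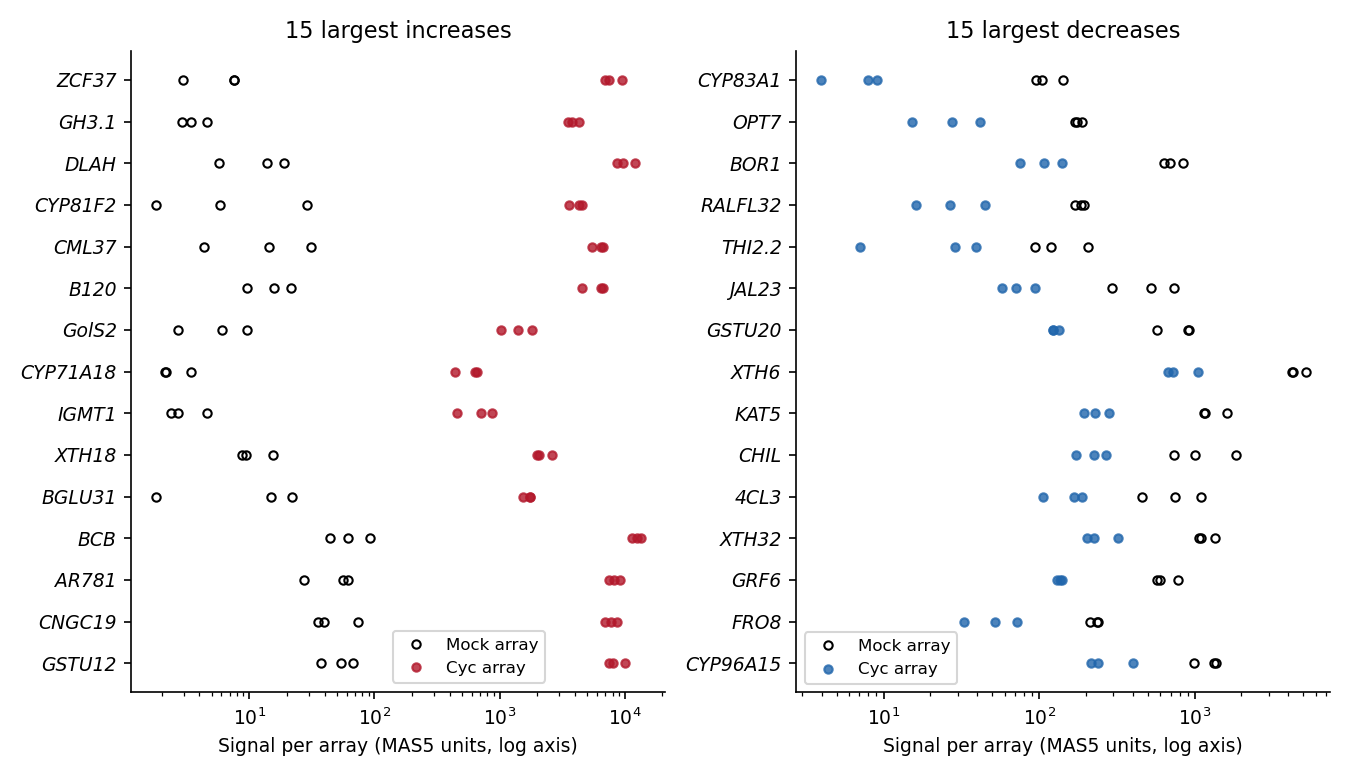
MAS5 signal in each array (log axis) for the 15 largest increases (left) and the 15 largest decreases (right) among called genes with a symbol. Open circles are the 3 Mock arrays and filled circles the 3 Cyc arrays; the groups do not overlap for any of the 30 genes, by the rule that chose them, and the gap is widest for *ZCF37*.

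Calcium sensors and the other genes known to answer within minutes to touch and wounding rose as a group. Of 12 listed touch and wound genes above the minimum, 9 were higher and 0 lower in Cyc, with a median log2 difference of 4.53 against -0.27 for all loci. *STZ* (AT1G27730), which encodes a zinc finger repressor of stress responses, had 187, 183 and 323 in mock and 19151, 21697 and 19319 in Cyc, among the highest signals of any locus. Every Cyc array was above every Mock array by well over an order of magnitude, and the log2 rise was 6.49 ± 0.22 (SE; limma adjusted p = 9.77e-08). *ZAT6*, another zinc finger gene, rose by 4.57, the MAP kinase kinase gene *MKK9* by 3.98, and *SIB1*, which encodes a sigma factor-binding protein, by 4.78. *ZAT5* and *MYB70* of the same list had log2 differences of -1.33 (limma adjusted p = 0.035) and 0.09 and were not called. With only the 6 arrays of this contrast in the fit, 7 of the 12 were called.

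The calmodulin-like proteins, which change shape on binding calcium, were the family with the highest median, 5.22 over the 6 *CML* symbols above the minimum, of which 5 were higher; this family, like the others that follow and are grouped by their symbols, was chosen after the values were seen. *CML37* (AT5G42380) had 4.34, 14.4 and 31.4 in mock and 5513, 6755 and 6503 in Cyc, and *CML41* had 32.4, 17.4 and 32.4 against 4111, 4364 and 4146. Both were near the bottom of the scale in all Mock arrays and bright in all Cyc arrays, with log2 rises of 8.96 and 7.32. *CML38* was unequal in mock, with 78.9, 613 and 499.9, and even in Cyc, with 6495, 6564 and 6376. *CML30* differed by 0.97 (limma adjusted p = 0.0145) and was not called, while 6 of the 6 were higher under the ratio-centred scaling.

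Of 6 plant U-box E3 ligase genes with a *PUB* symbol above the minimum, 3 were higher and 0 lower; those of the *PUB22* group mark proteins for degradation and dampen immune signalling. *PUB23* (AT2G35930) had 17.4, 8.25 and 55.7 in mock and 3079, 2572 and 2660 in Cyc, and *PUB24* had 51.3, 46.7 and 44.5 against 1512, 2185 and 1717. The arrays of the 2 groups were apart by more than 20-fold for either gene. *PUB26* rose by 2.30, and *PUB22* itself, with 28.4, 3.43 and 40.8 against 259, 224 and 209.5, had unequal mock values and did not pass (log2 3.86, limma adjusted p = 0.017). With 32 added to each signal *PUB22* passed (4.87-fold). *PUB43* (-0.50, limma adjusted p = 0.0429) had all Cyc arrays below mock and *PUB49* was at -0.25, and neither was called.

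All 5 listed *WRKY* transcription factor genes above the minimum rose, with a median of 4.13. *WRKY53* (AT4G23810), a regulator of leaf senescence and defence, had 71.1, 104 and 128 in mock and 9115, 13585 and 11349 in Cyc (log2 6.83 ± 0.26 SE, limma adjusted p = 1.66e-07). *WRKY75* rose by 5.70, *WRKY6* by 4.13, *WRKY22* by 3.06 and *WRKY15* by 2.78. The 2 brightest of them in mock, *WRKY22* and *WRKY15*, rose least, but the rise is itself measured from the mock signal. When all 7 genes with a *WRKY* symbol were taken, *WRKY20* (log2 0.15, limma adjusted p = 0.426) and *WRKY74* (-0.64, adjusted p = 0.02) were not called. The ethylene response factor genes *ERF-1* (AT4G17500) and *ERF6* (AT4G17490), neighbours by their locus numbers, rose by 4.62 and 5.04. *ERF6* was uneven in Cyc, with signals of 969, 3037 and 3505, though all were above the mock signals of 38.3, 87.1 and 87.6.

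The calls among primary auxin response genes were increases, in the Aux/IAA and the *GH3* families. Aux/IAA genes encode the short-lived repressors of auxin response factors, and 5 of 6 above the minimum were higher in Cyc, 0 lower, with a median log2 difference of 1.92. *IAA30* (AT3G62100) had 194, 141 and 174 in mock and 1064, 1510 and 1423 in Cyc, a log2 rise of 2.97 ± 0.24 (SE; limma adjusted p = 1.2e-05). The lowest Cyc array was more than 5-fold above the highest Mock array. *IAA1* rose by 2.31, *IAA29* by 2.07, *IAA20* by 1.76 and *IAA18* by 1.05, whereas *IAA14* had group means that differed by 0.10 (limma adjusted p = 0.82). *IAA18* was no longer called without Cyc replicate 2 (0.90) or with only the 6 arrays of this contrast. *IAA30* and *IAA20* belong to the Aux/IAA genes that lack the degron through which auxin has these proteins degraded.

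The *GH3* genes encode acyl amido synthetases, some of which conjugate auxin to amino acids. *GH3.1* (AT2G14960) had 3.45, 2.91 and 4.57 in mock and 3535, 4285 and 3799 in Cyc, a log2 rise of 10.07 ± 0.37 (SE; limma adjusted p = 1.17e-07), or 109-fold with 32 added. *GH3.3* started from a clear mock signal of 441, 419 and 537 and reached 8087, 11761 and 9580, a log2 rise of 4.39. *WES1* (*GH3.5*) was bright in mock, with a mean of 2869, and rose by 1.29. The order of the 3 rises was the reverse of the order of their mock signals. A low mock signal by itself makes the log2 rise larger, so nothing is read from this order. *GH3.17* (-0.83, limma adjusted p = 0.00138) lay below mock in all arrays by less than 2-fold and was not called. Of the listed *SAUR* genes only *SAUR36* was above the minimum (log2 0.69, adjusted p = 0.042).

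*BZIP60* (AT1G42990), the transcription factor that turns on chaperone genes when unfolded protein gathers in the endoplasmic reticulum, had 845, 909.9 and 1085 in mock and 10844, 14001 and 11722 in Cyc. It rose by 3.69 ± 0.14 on the log2 scale (SE; limma adjusted p = 1.25e-07), the largest change of the 9 *bZIP* symbols, of which *bZIP68* also rose (1.24) and *bZIP44* fell by 1.07. The call of *bZIP44* was lost under the ratio-centred scaling (-0.88), without Mock replicate 1 or Cyc replicate 3, and with only the 6 arrays. No other gene of the list for folding in this compartment was called higher. *CRT1b*, a calreticulin gene, fell from 2466 ± 203 to 1088 ± 25.1 (log2 -1.18), and was at -0.99 and not called under the ratio-centred scaling. *SAMDC2*, whose translation is controlled by an upstream reading frame, rose by 1.52 (limma adjusted p = 0.00556) with unequal mock arrays of 1714, 676 and 1282. It lost its call when any of Mock replicates 2 and 3 or Cyc replicates 2 and 3 was left out (1.14 to 1.6).

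Cell wall and secondary metabolism genes split in both directions. Of 6 genes with an *XTH* symbol, which encode enzymes that cut and rejoin xyloglucan, *XTH18*, *XTH19* and *XTH30* were higher and *XTH15*, *XTH16* and *XTH32* lower. *XTH6*, named only through the lists of Dex-responsive genes and described with the largest decreases, was lower as well. *XTH19* had 29.4, 40.6 and 37.0 in mock and 1020, 812 and 1083 in Cyc (log2 4.77), while *XTH16* had 956, 899 and 998 against 311, 347 and 317 (log2 -1.55). The expansin gene *EXPB3* fell by 1.62, and *EXPA4* differed by 0.91 (limma adjusted p = 0.0202). Of 19 UDP-glycosyltransferase genes above the minimum, from a list made after the values were seen, 5 were higher and 2 lower. *UGT73B4* (6.90) and *UGT73B5* (5.04) were at the top. The 2 lower were the flavonol glycosyltransferase gene *UGT78D1* (-1.71) and *UGT74D1* (-1.72), while *UGT84A1*, with uneven arrays, was at -1.82 and not called (limma adjusted p = 0.160). Among the *CYP71B* cytochrome P450 genes 4 of 8 were higher, *CYP71B22* by 2.60, and 2 lower, *CYP71B35* with a fall of 1.89 (log2 -1.89). The indole defence genes *PEN2* (4.42), *MYB122* (6.33), *CYP71A13* (4.73) and *PAD3* (4.22) were called higher too. They were picked after their values were seen. No list of this pathway was counted, so how many of its genes were lower or not called is not known here.

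The largest decrease on the log2 scale was at a dim gene. *CYP83A1* (AT4G13770), which acts in aliphatic glucosinolate synthesis, had 104, 142 and 95.0 in mock and 9.15, 3.94 and 8 in Cyc. All Cyc arrays were near the bottom of the scale, and the gene fell by 4.08 ± 0.68 on the log2 scale (SE; limma adjusted p = 0.00106), or 3.70-fold with 32 added to each signal. With 32 added the order changed, and *BOR1* (5.47-fold), *XTH6* (5.47) and *GSTU20* (5.12), among others, fell further than *CYP83A1*. The next genes on the log2 scale were the borate exporter gene *BOR1* (AT2G47160), with 846, 695 and 637 in mock and 75.9, 141 and 108 in Cyc (log2 -2.78), the oligopeptide transporter gene *OPT7* (-2.78) and *RALFL32* (-2.77). *XTH6* was the brightest of the 15 in mock, with 4278, 5158 and 4249, and had 1053, 729 and 678 in Cyc (log2 -2.50). *GRF6*, a growth-regulating factor gene, went from 649 ± 112 to 136 ± 4.93 (SD, n = 3; log2 -2.25). *GSTU20*, *JAL23* and *FRO8* fell by 2.62, 2.73 and 2.20. *THI2.2*, a thionin gene (-2.73), was not called without Mock replicate 2 or 3 or with only 6 arrays. Of these 15 genes, 8 were named only through the study's lists of Dex-responsive genes.

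The flavonoid genes named here were all lower in Cyc. *CHIL* (AT5G05270), which makes chalcone synthase more selective, had 1846, 742 and 1007 in mock and 224, 174 and 269.8 in Cyc (log2 -2.35 ± 0.31 SE, limma adjusted p = 0.000282). *DFR*, the dihydroflavonol reductase gene, had 2027, 1100 and 1471 against 366, 438 and 308 (log2 -2.02). The mock signals were uneven for both, Mock replicate 1 being the highest and replicate 2 the lowest, yet all were above the Cyc signals. *MYB12*, the regulator of flavonol synthesis, fell by 1.34, so that 3 of 3 genes of the list above the minimum were lower. The list held 12 genes, of which only these 3 were counted on the array, and was made after the values were seen. Genes named only through the lists of Dex-responsive genes were lower too: the chalcone synthase gene *TT4* from 9845 to 3236 (log2 -1.62), *TT5* (-1.77), *FLS1* (-1.73), *4CL3* (-2.26) and the thiolase gene *KAT5* (-2.47). *TT4*, *TT5* and *FLS1* were picked after their values were seen, and *4CL3* and *KAT5* for the size of their fall. *4CL3* lost its call without Mock replicate 1 or 3 or Cyc replicate 1. In wax synthesis, 2 genes were counted, from a list also made after the values were seen. *CYP96A15*, the midchain alkane hydroxylase gene, fell from 1233 to 285 (log2 -2.15), while *KCR1* (-0.71, limma adjusted p = 0.000764) did not reach 2-fold. *CER4* (-1.97) and *CER1* (-1.09), which were not in that count and were picked after their values were seen, were called lower as well.

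The calls among the beta-tubulin genes, and among the listed genes of cell division described after them, were decreases. All 5 beta-tubulin genes above the minimum fell, with a median log2 difference of -1.68. *TUB6* (AT5G12250) was the most even, with 1611, 1717 and 1647 in mock and 533, 491 and 531 in Cyc (log2 -1.68 ± 0.09 SE, limma adjusted p = 7.21e-07). *TUB5* fell by 2.12, *TUB1* by 1.80, *TUB7* by 1.21 and *TUB9* by 1.05. Under the ratio-centred scaling 4 of the 5 remained, without *TUB9* (-0.86).

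The 4 mitotic genes of the list drawn up with the other lists were all lower: the A-type cyclin gene *CYCA1;1* (AT1G44110), with 2144, 1638 and 1752 in mock and 843, 535 and 639.5 in Cyc (log2 -1.47), and the Aurora kinase genes *AUR1* (-1.01), *AUR2* (-1.13) and *AUR3* (-1.17). Under the ratio-centred scaling only *CYCA1;1* passed, the Aurora genes being at -0.82, -0.94 and -0.98. *AUR1* also lost its call without Mock replicate 2 (-0.96) or Cyc replicate 2 (-0.91). A wider list of 24 mitosis and cytokinesis genes, chosen after the values were seen, held 10 lower and 0 higher genes and had a median of -0.96, and 7 of the 24 were lower under the ratio-centred scaling. Of these, the chromatin protein gene *3xHMG-box2* went from 4408 to 1446 (log2 -1.61), and the phragmoplast kinesin genes *PAKRP1* and *KINESIN-12B* fell by 1.29 and 1.26. *FBL17*, the F-box gene whose product has CDK inhibitors degraded, fell by 1.46. All Cyc arrays lay below all Mock arrays for 19 of the 24 genes and above them for 2, where 45.3% and 23.2% of the 14531 loci did so (68.4% together). As the 24 were chosen with their values known, nothing is read from this gap. The 2 that lay above mock were *CYCA1;2* (0.32, limma adjusted p = 0.0423) and *KEU* (0.40, adjusted p = 0.0127), neither of them called.

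Of 28 genes of DNA replication, repair and recombination, listed after the values were seen, 13 were lower and 0 higher, with a median of -1.09, and 11 were lower under the ratio-centred scaling. *POLA3* (AT5G41880), a primase subunit gene of DNA polymerase alpha, had 909.9, 737 and 840.1 in mock and 237, 255 and 283 in Cyc (log2 -1.68 ± 0.13 SE, limma adjusted p = 7.86e-06). The catalytic subunit gene *ICU2* of the same polymerase had 617, 545 and 565 against 229, 232 and 195 (log2 -1.40). *PRL* (AT4G02060), the *MCM7* gene of the replicative helicase and the single member of the earlier replication list that was measured, fell from 1655 ± 252 to 582 ± 12.4 (log2 -1.49). Each of these genes had all Cyc arrays below all Mock arrays. The histone chaperone gene *ASF1B* fell by 1.62, *PSF2* of the GINS complex by 1.28 and the topoisomerase gene *TOPII* by 1.25. *ATLIG4*, the ligase gene of end joining, differed by 0.01 and was not called. Of the chromatin remodelling ATPase genes with a *CHR* symbol, 4 of 6 were lower, led by *CHR40* (482, 465 and 471 in mock against 190.2, 165 and 202 in Cyc, log2 -1.35), and 2 of 6 under the ratio-centred scaling.

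Histone genes, which are also used in S phase, showed no call. None of the 10 above the minimum was called in either direction, and 5 had an unadjusted p under 0.05 by limma. Their median was 0.10, or 0.30 under the ratio-centred scaling. *HTA7*, an H2A gene, lay above mock with 3220, 3325 and 3182 against 2179, 1638 and 1820 (log2 0.80, limma adjusted p = 0.000444), under the 2-fold limit. *HTB3* (0.69, limma adjusted p = 0.00594) and *H1.2* (0.64, limma adjusted p = 0.00573) were also above mock and under that limit. *H1.3*, a linker histone gene, went the other way from 483, 744 and 706 to 205, 410.1 and 229.6, all below mock (log2 -1.24, adjusted p = 0.135). *HTB4* was at -0.42 (adjusted p = 0.039) and *HTB1* at 0.07 (adjusted p = 0.70). Of the 14531 loci, 9690 had an unadjusted p under 0.05.

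Genes of the protein synthesis apparatus showed no call either. Of 15 ribosome biogenesis genes 0 were called, and 7 had an unadjusted p under 0.05 by limma. Their median was 0.24 and their range went from -0.52 to 0.77. The RNA polymerase I subunit gene *NRPA2* (0.52) and *RH10* (0.49) had limma adjusted p-values of 0.00608 and 0.00847 but stayed under 2-fold. Of 5 cytosolic ribosomal protein genes 0 were called and 3 had an unadjusted p under 0.05 by limma, with a median of -0.24. *PGY1* (-0.50) and *RPL28A* (-0.56) had limma adjusted p-values of 0.00368 and 0.00942, also under 2-fold. Of 4 subunit genes of the 26S proteasome 0 were called and 4 had an unadjusted p under 0.05 (median -0.55), and of 14 ubiquitin protease genes with a *UBP* symbol 0 and 7 (median -0.21). All 4 proteasome genes had their Cyc arrays below the Mock arrays, as did 45.3% of all loci. Of 35 genes of RNA processing and decay, a list made after the values were seen, 2 rose and 1 fell, the latter not called under the ratio-centred scaling, with a median of -0.43. *UPF3*, which acts in nonsense-mediated decay, was at 0.60 (limma adjusted p = 0.0104) and not called. *LSM1B* and *LSM6A* of the Sm-like complexes, at 1.01 and -1.06, lost their calls when single arrays were left out. Of 13 nuclear RNA polymerase subunit genes, a list also made after the values were seen, 0 were higher and 2 lower, with a median of -0.30. Under the ratio-centred scaling 1 was lower. The plant polymerase subunit gene *NRPE7* fell by 1.34, from 737 ± 46.7 to 291 ± 7.35.

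Transcripts of the plastid genome, which are translated on ribosomes that Cyc does not target, were measured for 64 genes above the minimum. Of these 13 were lower and 0 higher, the median was -0.84, and 53 had all Cyc arrays below all Mock arrays, where 45.3% of all loci did so. *rbcL*, for the large subunit of Rubisco, had 355, 256 and 399 in mock and 125, 132 and 145 in Cyc (log2 -1.3 ± 0.19 SE, limma adjusted p = 0.000492). *psbC* of photosystem II had 919.6, 774 and 887 against 401, 386 and 325 (log2 -1.22). *psbM*, one of the brightest, had 8411, 12440 and 13034 against 10613, 16882 and 15362, and these overlapped (log2 0.34, adjusted p = 0.337). The call was sensitive to scale: 3 of the 64 were lower under the ratio-centred scaling, where the median was -0.65, and 8 with only the 6 arrays of the contrast. Of 9 mitochondrial genes above the minimum 0 were called by limma and 3 had an unadjusted p under 0.05, with a median of -0.61.

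Nuclear genes of photosynthesis and chlorophyll synthesis were lower in 9 of 37 cases and higher in 0, with a median of -0.61; the list was made after the values were seen, and 6 were lower and 1 higher under the ratio-centred scaling. *Lhca5* (AT1G45474), a light-harvesting gene of photosystem I, had 1370, 1466 and 1571 in mock and 483, 468 and 521 in Cyc (log2 -1.58 ± 0.10 SE, limma adjusted p = 2.97e-06). *PRK*, the phosphoribulokinase gene of the Calvin cycle, had 988, 1238 and 1194 against 429, 426 and 452 (log2 -1.38). The spread in Cyc was small for both, and the groups were far apart. *NPQ4* fell by 1.43 and *CHLM* of chlorophyll synthesis by 1.26. The leaf genes *RCA* and *LHCB4.1* were both at -0.61 and not called, and *HEMB1* lay above mock at 0.99 without reaching 2-fold.

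Decreases were also called in small families of transport and signal genes. Of 5 *SWEET* sugar transporter genes 3 were lower, 2 under the ratio-centred scaling, led by *SWEET10* (AT5G50790), which had 1205, 849 and 1168 in mock and 381, 214 and 195 in Cyc (log2 -2.08). *SWEET2* fell by 1.2, and the call of *SWEET1* (-1.07, limma adjusted p = 0.00968) was lost when most single arrays were left out. Of 5 genes for RALF-like peptides, which bind receptor kinases at the cell surface, *RALFL32*, *RALFL24* (-1.73) and *RALFL34* (-1.27) were lower. *RALFL34* was bright, with 4761, 5283 and 5032 in mock and 2033, 2066 and 2162 in Cyc. *RALFL33* had 315, 749 and 616 against 961, 1529 and 1840 and was not called (log2 1.41, adjusted p = 0.0478).

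Genes that define the meristem and its organs were for the most part not called. *CLV3* (AT2G27250), the stem cell peptide gene, had 53.1, 126 and 78.4 in mock and 51.1, 134 and 119 in Cyc, which overlapped (log2 0.21 ± 0.40 SE, limma adjusted p = 0.728). Its sign turned with single arrays left out. *UFO* was at -0.20 (adjusted p = 0.56) and *KAN2*, an abaxial identity gene, at 0.14 (adjusted p = 0.452). *KNAT1* (AT4G08150), the class I KNOX gene of the meristem, had 3320, 2648 and 2612 against 1295, 1520 and 1629, all Cyc arrays lying below mock, with a log2 difference of -0.95 (limma adjusted p = 0.00525) just under 2-fold. Of 5 listed patterning genes the single call was *FIL*, an abaxial gene, with 2278, 2050 and 2079 against 1000, 1005 and 1057 (log2 -1.06 ± 0.10 SE, limma adjusted p = 3.45e-05), which was at -0.87 and not called under the ratio-centred scaling. *YAB3* (-0.59, adjusted p = 0.0453) and *PHV* (-0.51, adjusted p = 0.0275) also had all Cyc arrays below mock without a call. The flowering gene *AGL24* fell by 1.3, while the floral organ genes *PI* (-0.83) and *AP2* (-0.19) were not called.

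**Figure D4:**
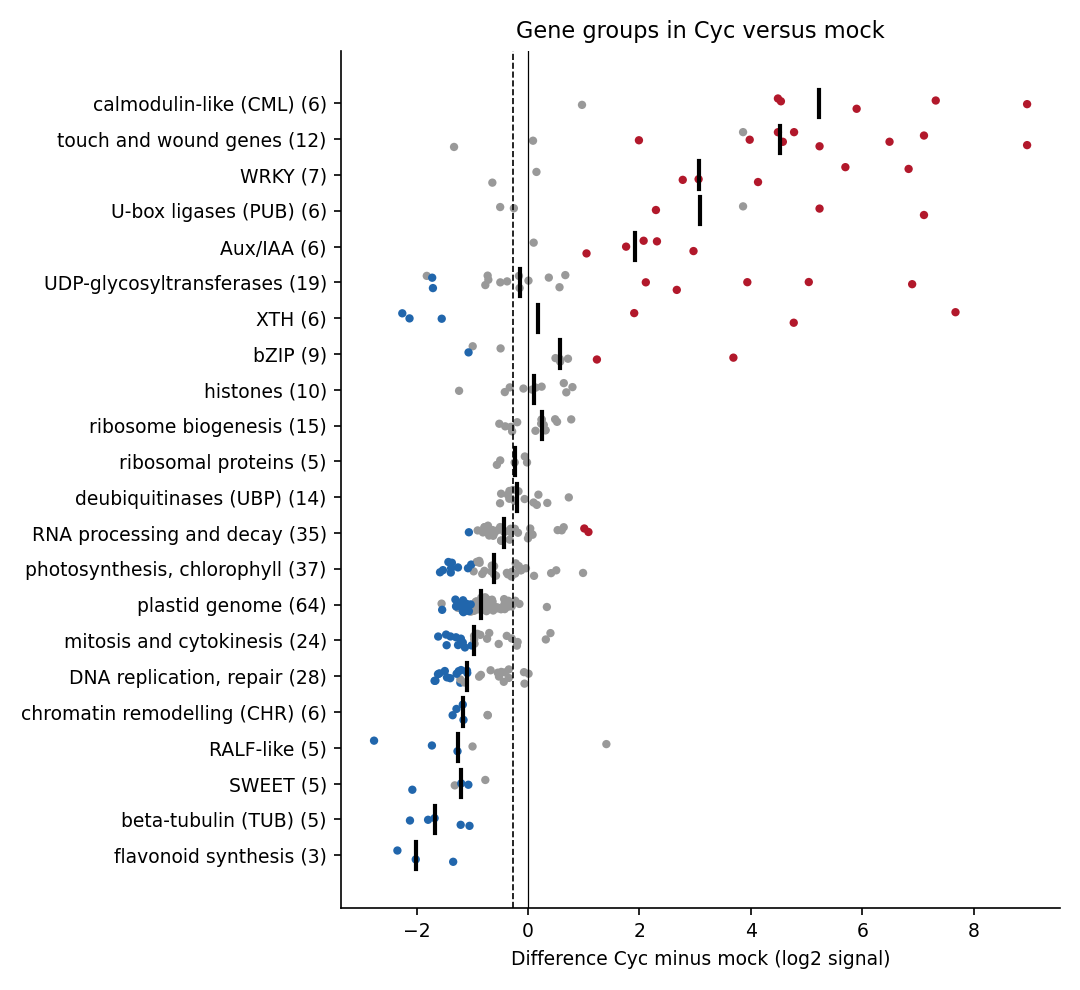
Log2 difference between Cyc and mock for each gene above the minimum in 22 groups, with the number of genes in brackets. Red and blue points are genes called higher and lower, grey points are not called, the thick bar is the median of the group and the dashed line the median of all 14531 loci (-0.27); medians run from 5.22 for calmodulin-like genes to -2.02 for flavonoid synthesis.

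The effect of Cyc was measured again in plants whose WUS-GR had been activated, by comparing Dex+Cyc with Dex, 6 arrays that are not in the first contrast. Both contrasts come from the same fit and share the estimate of spread for each locus, so their calls are not independent tests. Over the same 14531 loci, 1773 were higher (12.2%) and 1206 lower (8.3%), together 20.5%, again by limma. Of the 1755 loci upregulated without Dex, 1541 were upregulated with it, which is 87.8% of the first and 86.9% of the second list. Of the 1575 downregulated loci, 905 were downregulated in both, 57.5% and 75% of the lists, and 0 loci were called in opposite directions. The sign was the same for 1753 of 1755 increases and 1572 of 1575 decreases. The median log2 difference of the first list of increases was 2.46 with Dex and that of the decreases was -1.08. Across the loci the effects without and with Dex had a correlation of 0.961, as a description of 14531 loci read on the same array type and not of independent replicates.

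Among single genes, all 15 of the largest increases were called with Dex, *GH3.1* at 10.91, *CML37* at 10.45 and *ZCF37* at 7.68. Of the 15 largest decreases 8 were called in the second pair of groups, and each of the 15 was smaller there, as *BOR1* (-1.40) and *CYP83A1* (-0.78, limma adjusted p = 0.415) show; these genes had been chosen by their size in the first contrast, so nothing is read from this. *XTH6* was at -2.37. In the test of the difference between the effects none of these 30 genes passed (the lowest limma adjusted p among them, 0.166, was that of *ZCF37*), and 1 locus in all did so at an adjusted p under 0.01 with at least a 2-fold difference, where 1283 had an unadjusted p under 0.05.

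**Figure D5:**
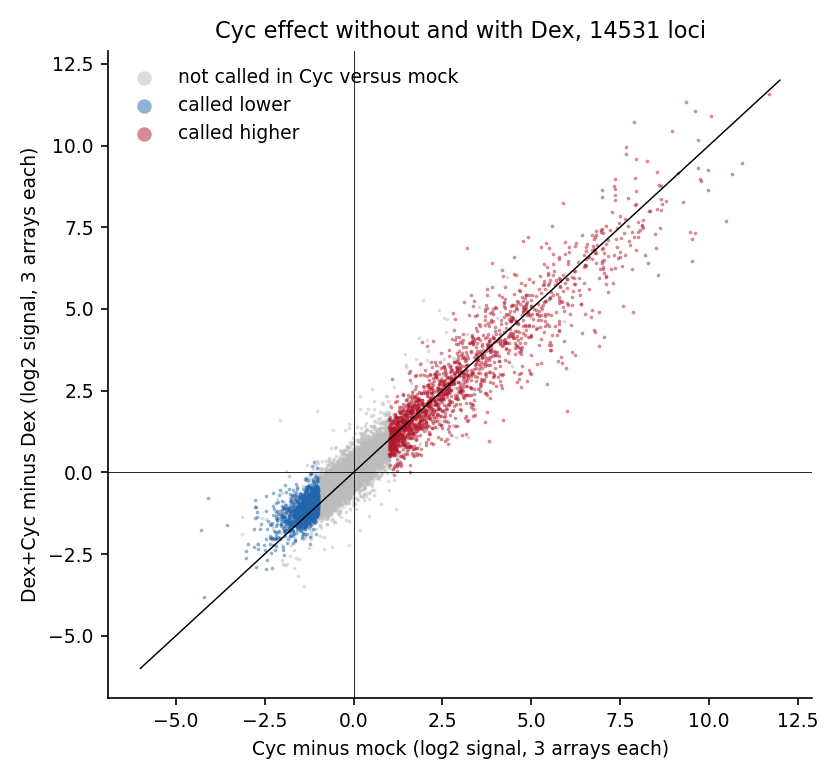
Log2 difference between Cyc and mock (x, 3 arrays each) against that between Dex+Cyc and Dex (y, 3 arrays each) for 14531 loci, with the line of equal effects. Loci called higher (red) and lower (blue) without Dex lie along the line, with the same sign for 1753 of 1755 and 1572 of 1575.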

How the data were processed

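The authors deposited MAS5 signals (intensity on a linear scale, 1 value per probe set) of 12 ATH1 arrays, 3 per treatment, each scaled to a trimmed mean of 500 with 2% trimmed from either end. MAS5 and affy are the tools in the submitters' processing notes, for which no version is given there. Detection calls, GCRMA values and promoter sequences were not used.

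Of 22810 probe sets 64 controls were left out. Through the platform table and supplementary tables of the study 14540 had a locus and 2514 a symbol, 421 of the loci coming only from lists of Dex-responsive genes; unnamed probe sets counted as loci of their own. Of the 3330 called loci 524 had a symbol (260 higher, 264 lower), so the named genes are only a part of the response.

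One limma fit (4 group means, 12 arrays, eBayes with 1.34 prior degrees of freedom) on log2 signal gave all log2 fold changes, with Benjamini-Hochberg adjustment over 22595 loci, and the minimum of 100 was applied after it. Means ± SD are of 3 signals. Named genes were the 15 called genes in each direction that changed most, had a symbol and had arrays apart, the 4 members of each list with the smallest adjusted p, and *CLV3*, *WUS*, *STM* and *KNAT1*; others were chosen after their values were seen. All members and lists were chosen with earlier results of these data known, and lists were only counted. Alternatives were other scalings, filters, variance models and thresholds, a replicate block and fits without single arrays. The limma step was tested on simulated data. R 4.3.3, limma 3.58.1, Python 3.11.15, pandas 2.3.3, numpy 2.4.6 and matplotlib 3.10.9 were used. The number of arrays limits the precision.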

Additional observations from a re-analysis of the deposited data

Results flagged for a closer look

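The effect of Cyc differed with and without Dex for 5 loci by the test of that difference (limma, Dex+Cyc minus Dex against Cyc minus mock, adjusted p under 0.05 over all loci). An unnamed probe set had mock signals of 4.77, 4.23 and 5.58 and a Cyc mean of 309 ± 21.2, but a mean of 81.8 ± 21.2 in Dex and 294 ± 27.1 in Dex+Cyc (SD, n = 3), a difference of -4.12 on the log2 scale (limma adjusted p = 0.0016). Its mock signals were near the bottom of the scale, and with 32 added its rise without Dex was 9.24-fold. A probe set that several genes share rose from 520 to 7462 without Dex and from 1246 to 5988 with it, a difference of -1.57 (adjusted p = 0.036). *NIA2*, a nitrate reductase gene, rose from 45.5 ± 1.06 to 2607 ± 254 and, with Dex, from 149 ± 34.3 to 1729 ± 373, a difference of -2.29 (adjusted p = 0.040). In these 3 cases the Cyc level was like with and without Dex or lower with it, and the level without Cyc was higher after Dex.

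*HAM4*, a GRAS gene that maintains the meristem, went the other way. It rose from 103 ± 14.7 to 220 ± 18.0 without Dex and from 15.9 ± 1.06 to 116 ± 15.9 with it, a difference of 1.77 (limma adjusted p = 0.040). AT5G17350 rose from 18.0 to 123 and, with Dex, from 6.91 to 203, a difference of 2.09 (adjusted p = 0.040). In both, the Dex arrays were below the Mock arrays.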

How the results depend on the processing

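The counts of 1755 higher and 1575 lower loci stayed within 1.5 times under the other scalings, filters, variance models and thresholds with 2 exceptions, both added after seeing the data. With each array centred on the median of its log2 ratios, 892 loci were lower; with a mean of at least 100 required in both groups, 1049 were higher. The cause was not tested for the former, and fewer loci entered in the latter. The widest of the remaining settings was the fit of the 6 arrays alone, with 1506 and 1139. Leaving out 1 array gave 1593 to 1722 higher and 1347 to 1648 lower loci.

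The replicate number as a block gave 1719 and 1524 calls. Same-numbered Cyc and Mock arrays did not deviate together (correlations of -0.0098, -0.053 and 0.0023). Whether same-numbered samples were grown or handled together is not in the labels, and these values cannot tell.

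With only the 6 arrays, *CML38*, *UGT78D1*, *EXPB3*, *MYB12*, *TOPII* and *SWEET2* also lost their calls at the same log2 differences; fewer residual degrees of freedom stood behind each test there. Of 211 genes followed, 141 were called, 106 of these kept direction and call under every alternative run, and none of the called turned direction. Signs turned only for genes not called: under the ratio-centred scaling *EIF4A-2* (0.0948), *GID1A* (0.10), *AP2* (0.0046) and *RPL4D* (0.13), by quantile normalization *CLV3* (-0.0066) and with array weights *IAA14* (-0.0216). With single arrays left out *CLV3* ranged from -0.0896 to 0.65, *IAA14* from -0.10 to 0.28, *EIF4A-2* from -0.29 to 0.0150 and *RPL4D* from -0.11 to 0.0438.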
